A study of Mus musculus with 6 samples.

Results

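The Notch pathway genes examined in the kidneys of hyperuricemic mice were 4 receptors (Notch1, Notch2, Notch3 and Notch4), 4 ligands (Jag1, Jag2, Dll1 and Dll4) and 2 target genes (Hes1 and Hey1). They were chosen by gene symbol and make up 10 of the 55450 genes in the count table. All 10 had enough counts to be tested, among 16592 genes tested in all.

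Notch receptors are membrane proteins that are switched on by ligands on the surface of a neighboring cell. Binding exposes the receptor to an ADAM protease and then to the gamma-secretase complex, which frees the intracellular part of the receptor. This part enters the nucleus, joins the DNA-binding protein RBPJ and a Mastermind co-activator, and turns on genes of the Hes and Hey families, which encode transcriptional repressors. In the kidney the pathway is known for its part in nephron patterning and in the balance of collecting duct cell types, and it is known in blood vessels, where Dll4 and Notch4 are typical of endothelium and Notch3 of mural cells (pericytes and smooth muscle).

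Kidney tissue came from male wild-type C57BL/6J mice, bought at 7 weeks of age and kept for 1 week before the study. The paper states that kidneys were divided for different purposes, so the RNA may have come from a part of the kidney. The day-0 group, which the labels call control and link to 20% PEG, was compared with the day-21 group, which received adenine (0.16 g/kg) mixed with potassium oxonate (2.4 g/kg) by gavage once daily. Each group was sequenced in 3 mice. Whether the control mice were gavaged with PEG, and for how long, is not clear from the sources used here, so a difference in gavage between the groups is possible. Because adenine and oxonate were given together and each group was killed on its own day, their separate parts, and that of age, cannot be told apart from the difference between the groups.

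Each library held between 10963849 and 14333311 counts, so that 3 counts, taken as the detection floor, stood for 0.179 to 0.309 normalized CPM (counts scaled to library size, with TMM factors). Such floors cover counting error only. The tissue label was borne out by nephron markers, with a summed level of 8 proximal tubule markers between 10905 and 12060 CPM on day 0. This sum was between 2275 and 2787 CPM on day 21, and a sum of 8 injured tubule markers went from between 223 and 320 to between 2646 and 2875 CPM. In bulk tissue, fewer cells of a type and less RNA per cell cannot be told apart.

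Across all 10 genes, Hes1 alone was a differentially expressed gene (DEG), and it was higher on day 21. A DEG had to differ by more than 1.5-fold and to have p below 0.05 in the quasi-likelihood test of edgeR, after Benjamini-Hochberg adjustment across every gene tested. By this rule 35.1% of all genes tested were DEGs, 19.6% higher and 15.5% lower, against 1 of the 10 Notch genes. The median log2 fold change of the 10 genes was 0.07, beside 0.03 for all genes tested, and their estimates ran from -0.55 for Notch4 to 0.78 for Hes1. Without the limit on fold, 2 of the 10 genes, Hes1 and Notch4, passed the 0.05 threshold in this edgeR test, beside 45.6% of all genes tested. In Notch1, Notch2, Jag2 and Dll1 the whole 95% interval of the estimate lay within a 1.5-fold change in either direction, as it did in 25.1% of all genes tested. For the other 5 genes that were not called, the interval reached beyond 1.5-fold, so whether a change of that size occurred could not be settled with 3 mice a group.

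**Figure D1:**
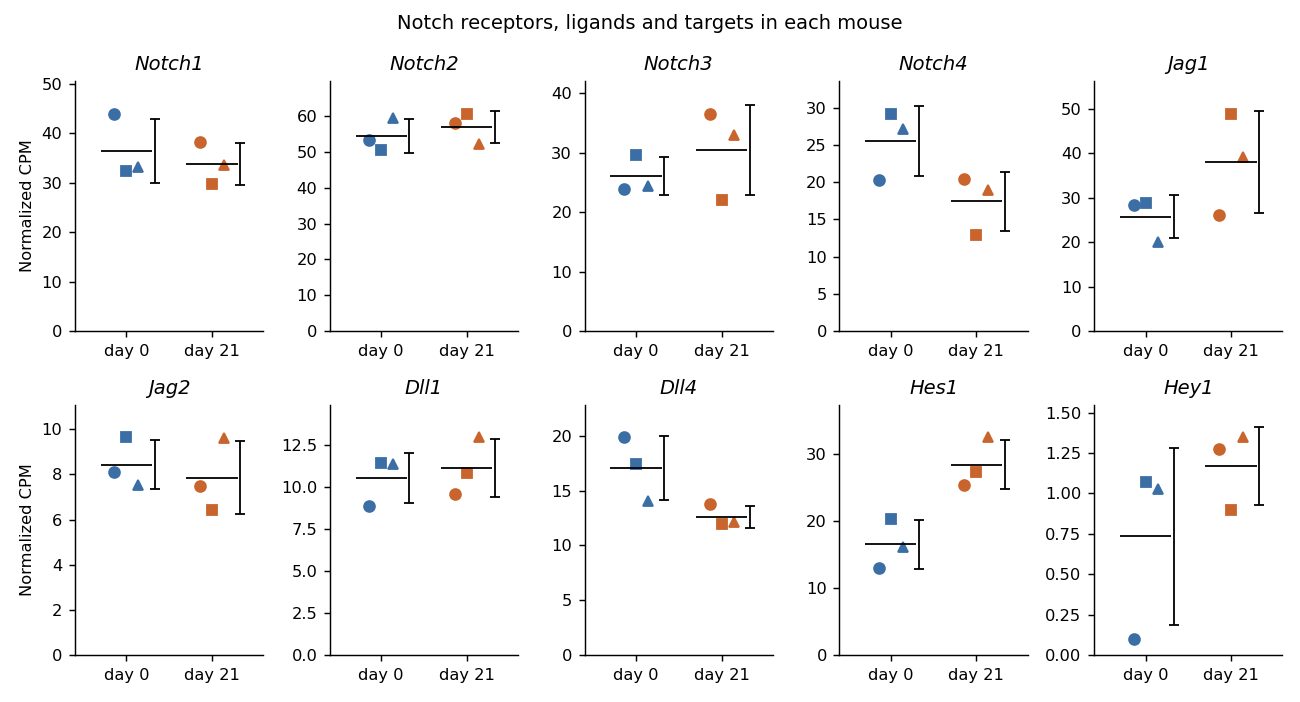
Normalized CPM (vertical axes, each starting at 0) of the 10 Notch genes in every mouse on day 0 (blue) and day 21 (orange). Circle, square and triangle are replicates 1, 2 and 3, the horizontal line is the mean and the bar beside it the SD (n = 3). Only Hes1 and Dll4 had groups that did not overlap, Hes1 with all day-21 mice above 25 CPM and Dll4 with all of them below 14 CPM. Among all genes tested, 57.1% had groups that did not overlap in either direction.

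Among the ligands, Jag1 had the largest estimate. Jag1, a ligand of the Serrate type (ENSMUSG00000027276.7, chromosome 2 of GRCm38 from 137081456 to 137116644, reverse strand), had normalized levels of 28.3, 28.8 and 20.1 CPM on day 0 and 26.2, 48.9 and 39.0 CPM on day 21. The groups overlapped, since replicate 1 of the day-21 group lay below replicates 1 and 2 of the day-0 group. The means were 25.7 ± 4.87 and 38.0 ± 11.4 CPM (SD, n = 3 each), a log2 fold change of 0.56 (standard error 0.22, edgeR adjusted p = 0.061) with a 95% interval from 0.07 to 1.06. Jag1 was therefore not called. Without day-21 replicate 1 it was called higher (log2 fold change 0.77, edgeR adjusted p = 0.010). Without day-21 replicate 2 the log2 fold change was 0.34 (edgeR adjusted p = 0.247), and without day-0 replicate 3 it was 0.40 (edgeR adjusted p = 0.189).

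Dll4, a Delta-type ligand of endothelial tip cells and arteries (ENSMUSG00000027314.6, chromosome 2 from 119325784 to 119335962, forward strand), lay the other way. Its levels were 19.9, 17.4 and 14.0 CPM on day 0 and 13.8, 11.9 and 12.1 CPM on day 21, so that all day-21 mice were below all day-0 mice by a narrow gap. The groups did not overlap in this direction in 26.4% of all genes tested. The log2 fold change was -0.44 (standard error 0.17, 95% interval from -0.81 to -0.06, edgeR adjusted p = 0.055), short of the threshold. When libraries were scaled by their total counts alone, which lifts the median of all genes to 0.42, the estimate for Dll4 was -0.05, which is -0.47 relative to that median.

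The remaining ligands had close means on both days. Dll1 (ENSMUSG00000014773.13, chromosome 17 from 15367354 to 15376872, reverse strand), a Delta-type ligand, had 8.82, 11.4 and 11.3 CPM on day 0 and 9.54, 10.8 and 12.9 CPM on day 21. Jag2 (ENSMUSG00000002799.6, chromosome 12 from 112907819 to 112929776, reverse strand), the paralog of Jag1, had 8.12, 9.64 and 7.52 CPM on day 0 and 7.49, 6.44 and 9.62 CPM on day 21. In both genes the groups overlapped. Their log2 fold changes were 0.08 (95% interval from -0.34 to 0.50, edgeR adjusted p = 0.767) for Dll1 and -0.11 (95% interval from -0.58 to 0.37, edgeR adjusted p = 0.718) for Jag2.

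Of the receptors, Notch2 was the highest on both days. Notch2 (ENSMUSG00000027878.11, chromosome 3 from 98013527 to 98150361, forward strand), the receptor known for proximal nephron formation, had 53.2, 50.4 and 59.5 CPM on day 0 and 57.9, 60.6 and 52.1 CPM on day 21. Its levels overlapped fully, with a log2 fold change of 0.07 (95% interval from -0.19 to 0.32, edgeR adjusted p = 0.669). This was the narrowest interval of the 10 genes. Notch1 (ENSMUSG00000026923.15, chromosome 2 from 26457903 to 26516663, reverse strand), the most widely expressed receptor, had 43.9, 32.3 and 33.1 CPM on day 0 and 38.2, 29.7 and 33.5 CPM on day 21. Here replicate 1 of the day-0 group was the highest of the 6 mice, and that mouse also had the highest injured tubule sum of the day-0 group, 320 CPM. The log2 fold change of Notch1 was -0.11 (95% interval from -0.45 to 0.23, edgeR adjusted p = 0.602) and it was 0.03 without that mouse.

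Notch4, the receptor of endothelial cells (ENSMUSG00000015468.14, chromosome 17 from 34564268 to 34588503, forward strand), had 20.3, 29.2 and 27.1 CPM on day 0 and 20.4, 12.9 and 18.9 CPM on day 21. The groups touched, since the lowest day-0 mouse and the highest day-21 mouse were nearly level. The means were 25.5 ± 4.67 and 17.4 ± 3.93 CPM (SD, n = 3 each). The log2 fold change was -0.55 (standard error 0.20, edgeR adjusted p = 0.043), so that day 21 stood at between 0.501 and 0.925 times day 0 by the 95% interval, a fold just under the 1.5 that a DEG requires. Notch4 was called lower with DESeq2 (-0.59, DESeq2 adjusted p = 0.022), with RLE scaling (-0.59, edgeR adjusted p = 0.035) and without day-0 replicate 1 (-0.72) or day-21 replicate 1 (-0.68). With any other mouse left out its edgeR adjusted p was above the threshold, at 0.138 without day-0 replicate 2 (-0.45), 0.083 without day-0 replicate 3 (-0.53), 0.142 without day-21 replicate 2 (-0.38) and 0.071 without day-21 replicate 3 (-0.62). With library size alone the estimate was -0.17, which is -0.59 relative to the median of all genes under that scaling.

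Notch3, the receptor of mural cells (ENSMUSG00000038146.8, chromosome 17 from 32120820 to 32166852, reverse strand), had 24.0, 29.7 and 24.4 CPM on day 0 and 36.5, 22.0 and 32.9 CPM on day 21. The day-21 mice were split, with replicates 1 and 3 above and replicate 2 below every day-0 mouse. The log2 fold change was 0.22 (standard error 0.19, 95% interval from -0.19 to 0.64, edgeR adjusted p = 0.358). It was not called under TMM, RLE or upper quartile scaling and was called higher with library size alone (0.61, edgeR adjusted p = 0.014), where it stood 0.19 above the median of all genes.

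Hes1, a repressor of the basic helix-loop-helix type and the best known target of Notch (ENSMUSG00000022528.8, chromosome 16 from 30064384 to 30067796, forward strand), had 13.0, 20.4 and 16.2 CPM on day 0 and 25.4, 27.4 and 32.5 CPM on day 21. All day-21 mice lay above all day-0 mice, an order that 30.7% of all genes tested had. The mean rose from 16.5 ± 3.67 to 28.5 ± 3.66 CPM (SD, n = 3 each). This was a 1.72-fold rise (log2 fold change 0.78, standard error 0.18, 95% interval from 0.38 to 1.18, edgeR adjusted p = 0.005). The two-sided exact permutation test gave p = 0.1, the smallest p that 3 mice against 3 allow. Hes1 was called higher under all 15 alternatives that kept the DEG thresholds, with estimates from 0.61 to 1.17, and was not called when a fold over 2 was required. The summed markers of injured tubule, of macrophages (from between 142 and 184 to between 805 and 941 CPM) and of fibroblasts (from between 170 and 314 to between 1075 and 2087 CPM) were also higher in every day-21 mouse. So were those of T cells (from between 4.81 and 10.1 to between 25.7 and 29.9 CPM) and of mural cells. The sums of proximal tubule, thick ascending limb, principal cell, intercalated cell, podocyte and endothelial markers were lower in every day-21 mouse. All 8, 8 and 7 markers of injured tubule, macrophages and fibroblasts were DEGs, beside 35.1% of all genes tested, and none was at or under the floor in all 6 mice. Krt20, an injured tubule marker, was at it in day-0 replicate 2 (3 counts). The part of any of these cell types in the rise of Hes1 was not tested.

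Hey1, the repressor that serves as a Notch target in endothelium (ENSMUSG00000040289.8, chromosome 3 from 8663359 to 8667256, reverse strand), was scarce. Its raw counts were 1, 13 and 10 on day 0 and 18, 15 and 22 on day 21. On the normalized scale this was 0.10, 1.07 and 1.03 CPM against 1.27, 0.895 and 1.35 CPM, and the groups overlapped. The log2 fold change of 0.64 had a standard error of 0.60 and a 95% interval from -0.68 to 1.97 (edgeR adjusted p = 0.408). It was 0.13 without day-0 replicate 1, the mouse with 1 count. With so few counts and this spread between the day-0 mice, a difference in Hey1 was not detectable.

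**Figure D2:**
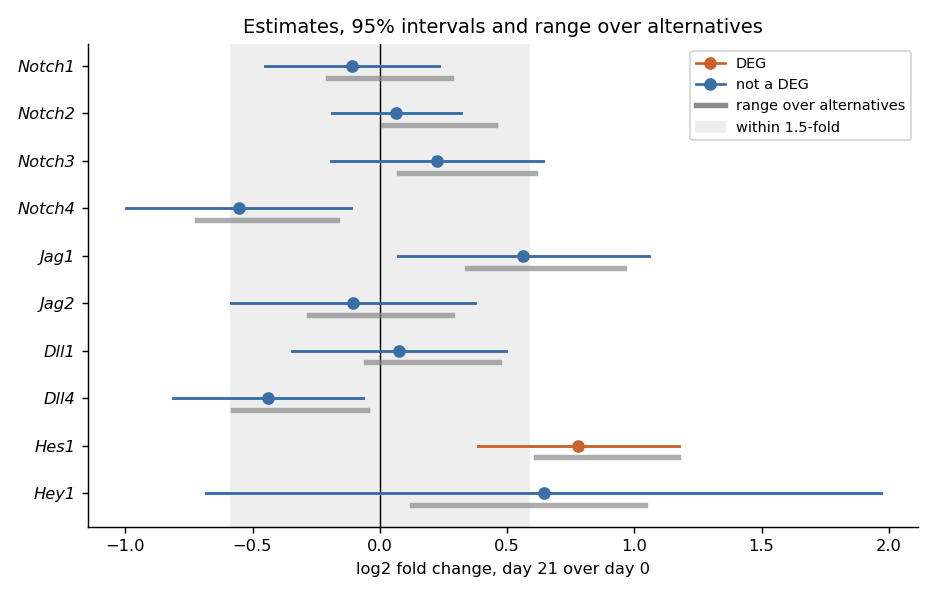
Log2 fold change of day 21 over day 0 (horizontal axis) for each Notch gene, with its 95% interval from edgeR (thin line) and the range over the alternative scalings, filters, tools and left-out mice (gray bar). Shading marks changes within 1.5-fold; Hes1 (orange) is the DEG, and the intervals of Notch1, Notch2, Jag2 and Dll1 lie wholly inside the shading.

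For 8 of the 10 genes (all but Hes1 and Hey1) RefSeq promoter windows around the start of the gene on GRCm38.p6 were at hand, in 9 windows. These windows were searched on both strands for the letters of the RBPJ core (TGGGAA, and its longer form GTGGGAA, which contains it), for the E-box CACGTG and for the N-box CACNAG that Hes proteins bind. No window of the 8 genes held the RBPJ core, its longer form or the E-box, while 25.6%, 6.39% and 7.15% of 32817 mouse windows did. An N-box was found for Notch1, Notch2, Notch3, Dll1 and Dll4, that is for 5 of the 8 genes, and in 42.5% of all windows. The absence of letters from this window says nothing of sites elsewhere. The start-proximal sequence is shown for the receptor and the ligand whose estimates lay farthest apart, Notch4 and Jag1, both without any of these motifs. The Notch4 stretch is the forward strand of chr17:34564045-34564267 and ends 27 bases before the RefSeq start, and the Jag1 stretch is the reverse strand of chr2:137116645-137116770 and ends 124 bases before it. Both are given 5′ to 3′ up to the nearest annotated exon, in lower case because they hold no match to capitalize.
Notch4: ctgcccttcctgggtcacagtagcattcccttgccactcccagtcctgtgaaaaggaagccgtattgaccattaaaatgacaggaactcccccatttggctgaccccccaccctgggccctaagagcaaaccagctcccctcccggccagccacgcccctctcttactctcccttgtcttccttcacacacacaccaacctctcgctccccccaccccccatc
Jag1: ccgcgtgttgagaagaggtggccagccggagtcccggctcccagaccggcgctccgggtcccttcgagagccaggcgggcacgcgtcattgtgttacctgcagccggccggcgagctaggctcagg

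Levels of different genes were then compared per kilobase of exon. On this scale Notch2 stood above the other receptors on both days, at 5.04 ± 0.432 CPM per kb on day 0 and 5.27 ± 0.405 on day 21 (SD, n = 3), with no overlap with the next receptor. The other receptors were between 2.56 and 3.22 CPM per kb on day 0 and overlapped with their neighbors in that order. Notch4 came after Notch3 on day 0 at 3.16 ± 0.579 and was lowest on day 21 at 2.16 ± 0.488 CPM per kb. The order below Notch2 depended on the length used, since Notch1 has many more exon bases (14232) than its longest transcript (9488), and with the latter Notch3 was lowest on day 0. Of the ligands, Dll4 and Jag1 were level on day 0 at 4.44 ± 0.761 and 4.41 ± 0.836 CPM per kb. On day 21 Jag1 was at 6.52 ± 1.95 and Dll4 at 3.27 ± 0.264 CPM per kb, without overlap, and Jag2 was lowest on both days (1.21 ± 0.157 and 1.13 ± 0.232). Hes1 was at 8.11 ± 1.80 and 14.0 ± 1.80 CPM per kb, far above Hey1 at 0.225 ± 0.168 and 0.359 ± 0.0743.

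Shares within a library do not depend on how libraries are scaled, so the make-up of the receptors and of the ligands was set beside the fold changes. Jag1 held 36.6%, 36.5% and 31.8% of the summed ligand level on day 0 and 39.4%, 56.0% and 46.9% on day 21. The groups did not overlap, and the mean share was 12.5 percentage points higher on day 21. It was 8.16 points higher without day-21 replicate 2 and 16.5 points higher without day-21 replicate 1. Dll4 went the other way, from 38.9%, 33.4% and 33.5% to 31.4%, 20.7% and 22.0%, a lower mean (35.2% ± 3.13 against 24.7% ± 5.82; SD, n = 3 each). Notch4 held 18.6%, 25.4% and 23.6% of the summed receptor level on day 0 and 16.7%, 13.3% and 17.3% on day 21, again without overlap. Each of these 3 differences had p = 0.1 in the two-sided exact permutation test, the smallest it can give, and an adjusted p of 0.267 over the 8 shares compared. The shares of Notch1, Notch2, Notch3, Jag2 and Dll1 overlapped between the days (exact permutation p from 0.2 to 1.0). After these values were seen, the log2 ratio of Notch3 to Notch4 counts was also computed, as a description, and it was 0.24, 0.02 and -0.15 on day 0 and 0.84, 0.77 and 0.80 on day 21.

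**Figure D3:**
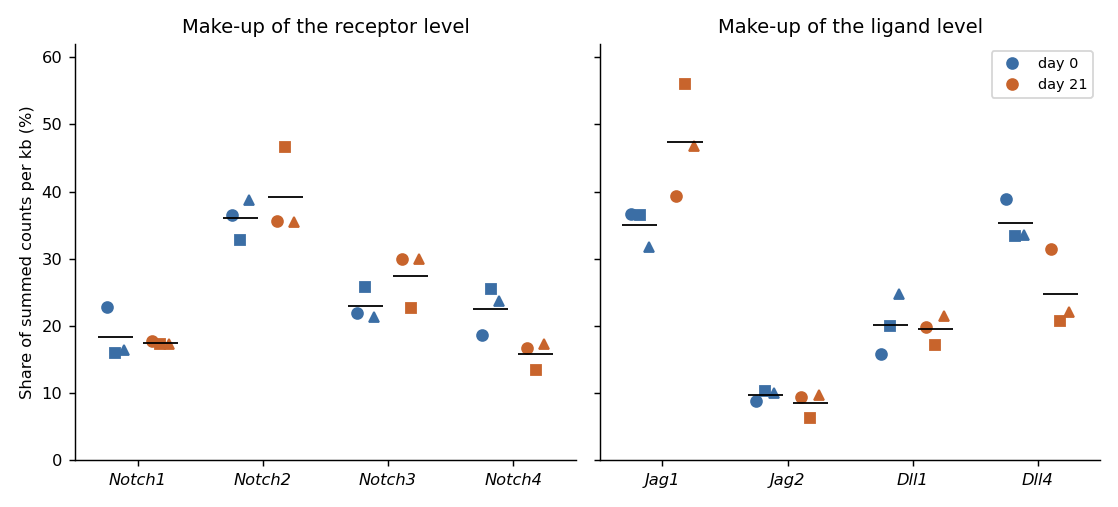
Share (%) of each receptor in the summed receptor level (left) and of each ligand in the summed ligand level (right), as counts per kb of exon, in every mouse on day 0 (blue) and day 21 (orange). Circle, square and triangle are replicates 1, 2 and 3 and lines are means; the shares of Notch4 and Dll4 were lower and that of Jag1 higher in each day-21 mouse than in any day-0 mouse.

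Because Notch4, Dll4 and Notch3 are known from vessels, they were set beside markers of vascular cells in the same mice. The sum of 12 endothelial markers was between 911 and 1070 CPM on day 0 and between 530 and 836 CPM on day 21, a 1.35-fold lower mean. Of these markers 3 were DEGs (25%, beside 35.1% of all genes tested), and none was at or under the floor. All 3 were lower (Kdr, Flt1 and Ptprb, with log2 fold changes of -1.33, -1.22 and -0.99, named after their values were seen). The markers did not all fall, since 2 of the 12 had estimates above 0. These were Egfl7 at 0.51 (edgeR adjusted p = 0.016, every day-21 mouse above every day-0 mouse) and Eng at 0.11. Ratios to the sum were not computed without Kdr, Flt1 and Ptprb. Relative to the endothelial sum, the log2 level of Notch4 differed by -0.11 between the days (-5.27 ± 0.291 against -5.38 ± 0.0339; SD, n = 3 each; exact permutation p = 0.7) and that of Dll4 by 0.03 (-5.85 ± 0.360 against -5.82 ± 0.307; exact permutation p = 1.0). With each mouse left out these differences ran from -0.24 to 0.05 for Notch4 and from -0.17 to 0.17 for Dll4. For Hey1 the ratio was higher in each day-21 mouse, by 1.72 on the log2 scale, with the lowest day-0 ratio in the mouse with 1 count, which is under the floor. The difference was 0.61 without that mouse and 1.02 with the mean log2 level of the markers in place of their sum.

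The sum of 9 mural markers was between 310 and 342 CPM on day 0 and between 406 and 515 CPM on day 21. Of these markers 6 were DEGs (66.7%, beside 35.1% of all genes tested), 5 higher and 1 lower (Myh11, named after its values were seen). The markers did not all rise, since 3 of the 9 had estimates below 0. These were Myh11 (-0.79), Cnn1 (-0.18) and Rgs5 (-0.05). Notch3 relative to the mural sum was -3.66 ± 0.130 on day 0 and -3.99 ± 0.198 on day 21 on the log2 scale (SD, n = 3 each). This was a difference of -0.33 without overlap (exact permutation p = 0.1). With the mean log2 level of the markers in place of their sum, the difference was -0.18 (exact permutation p = 0.4). Replicate 2 of the day-21 group had the lowest endothelial sum of all 6 mice (530 CPM). Its mural, fibroblast and injured tubule sums were the lowest of its group (406, 1075 and 2646 CPM). The injured tubule markers were split, however. In this mouse Havcr1 (864 CPM) and Krt20 (53.2 CPM) were the lowest of the group. Vcam1 (491 CPM), Sox9 (33.6 CPM), Krt8 (501 CPM), Krt18 (174 CPM) and Cdh6 (47.7 CPM) were the highest. The same mouse was the lowest of its group in Notch1, Notch3, Notch4, Jag2, Dll4 and Hey1, the highest in Jag1 and Notch2, and between the others in Dll1 and Hes1. The injured tubule markers moved far more than Jag1 or Notch2, with a 10.7-fold higher mean sum and all 8 markers called higher (beside 19.6% of all genes tested). The log2 ratios of Jag1 and Notch2 to that sum were 2.91 and 3.38 lower on day 21 (exact permutation p = 0.1 each). A sum that rises this much lowers the ratio of any gene that changed less. These p-values therefore say nothing of Jag1 or Notch2 themselves. The adjusted p over the 6 ratios, which counts those of Jag1 and Notch2, was 0.15 for Hey1, Notch3, Jag1 and Notch2 alike.

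**Figure D4:**
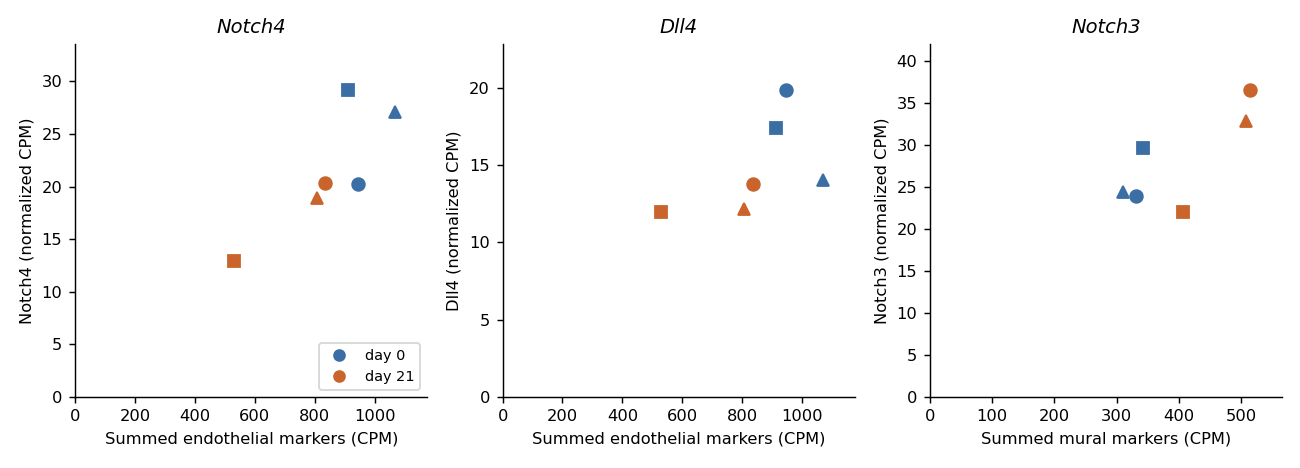
Normalized CPM of Notch4, Dll4 and Notch3 (vertical axes) against the summed CPM of endothelial or mural markers (horizontal axes) in each of the 6 mice, day 0 in blue and day 21 in orange, with circle, square and triangle for replicates 1, 2 and 3. Replicate 2 of the day-21 group (orange square) had the lowest endothelial sum, 530 CPM, and the lowest Notch4, Dll4 and Notch3 levels.

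Another 65 genes of the pathway, listed by their role, were read from the same comparison. Of these 57 were tested and 16 were DEGs (28.1%, beside 35.1% of all genes tested), 9 higher and 7 lower, with a median log2 fold change of 0.13. The 8 genes with too few counts included the ligands and ligand-like genes Dll3, Dlk1, Dlk2 and Dner and the Hes genes Hes3, Hes5 and Hes7. Scaling by library size alone changed the split to 25 higher and none lower, as it changed the share of higher genes among all DEGs from 55.8% to 81.7%.

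Of the 4 other Hes and Hey genes tested, Heyl was called (25%, beside 35.1% of all genes tested). This repressor, known as a Notch target in mural cells, had 8.12, 6.43 and 6.70 CPM on day 0 and 17.2, 14.7 and 14.6 CPM on day 21. All day-21 mice were above all day-0 mice, and the log2 fold change was 1.13 (standard error 0.17, edgeR adjusted p = 0.00047). Hes6, Hes2 and Hey2 were not called, with log2 fold changes of -0.20, 0.68 and -0.16, and neither was Nrarp, a feedback inhibitor (0.41).

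Of 9 genes of the nuclear complex, 1 was called (11.1%, beside 35.1% of all genes tested). Rbpj itself had a log2 fold change of 0.40 (edgeR adjusted p = 0.016), below the fold that a DEG requires, and of the Mastermind co-activators Maml2 rose (0.84, edgeR adjusted p = 0.0064) while Maml1 and Maml3 were not called (0.31 and 0.07). Of 12 co-repressor genes, 2 fell (16.7%, beside 15.5% of all genes tested). Spen, the scaffold that recruits co-repressors to RBPJ, went from 98.7 ± 17.2 to 56.0 ± 3.56 CPM (SD, n = 3 each), a log2 fold change of -0.82 (edgeR adjusted p = 0.00087). Ncor1 fell by 0.64 on the log2 scale (edgeR adjusted p = 0.0048), a call lost under 4 of 15 alternatives, among them without day-0 replicate 3 and without day-21 replicate 2.

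Of the proteases that cut the receptor, Adam10 rose from 79.9 ± 11.5 to 122 ± 3.98 CPM (log2 fold change 0.61, edgeR adjusted p = 0.0024). Adam17 was not called, with a log2 fold change of 0.42. In the gamma-secretase complex Aph1c was called lower (-0.59, edgeR adjusted p = 0.0081), a call lost under 9 of 15 alternatives. Psen2 (0.42) and Ncstn (0.55), genes of the same complex, had an edgeR adjusted p of 0.042 and 0.0017 without reaching the fold. Furin, which cuts the receptor on its way to the surface, fell by 0.64 (edgeR adjusted p = 0.00073).

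Of 5 glycosyltransferase genes, 1 rose and 1 fell, beside 19.6% higher and 15.5% lower of all genes tested. Both were Fringe genes, which set how a receptor responds to Jagged or Delta ligands. Lfng rose (0.73, edgeR adjusted p = 0.031), Rfng fell (-0.83, edgeR adjusted p = 0.00096) and Mfng was not called (0.44). Among the ubiquitin ligases that activate ligands, both Neuralized genes rose, Neurl1a by 1.88 and Neurl1b by 0.81 (edgeR adjusted p = 0.006 and 0.0018), although Neurl1a was scarce at 1.14 ± 0.700 CPM on day 0. The Mindbomb genes Mib1 and Mib2 were not called (-0.34 and -0.14).

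Among the regulators of receptor endocytosis and turnover, 3 of 10 rose and 2 fell, beside 19.6% higher and 15.5% lower of all genes tested. Numb, an inhibitor of Notch, fell (-0.67, edgeR adjusted p = 0.0028), while its paralog Numbl rose from 2.61, 2.14 and 2.27 to 11.2, 8.17 and 9.49 CPM (log2 fold change 2.04, edgeR adjusted p = 7.4e-05). The ubiquitin ligase gene Itch fell (-0.73, edgeR adjusted p = 0.00081). In the Deltex family Dtx3l, known for its part in interferon and DNA damage responses, rose most (2.15, edgeR adjusted p = 8.7e-06), Dtx4 rose by 0.79 (edgeR adjusted p = 0.0018), and Dtx2 and Dtx3 were not called (-0.08 and 0.49).

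**Figure D5:**
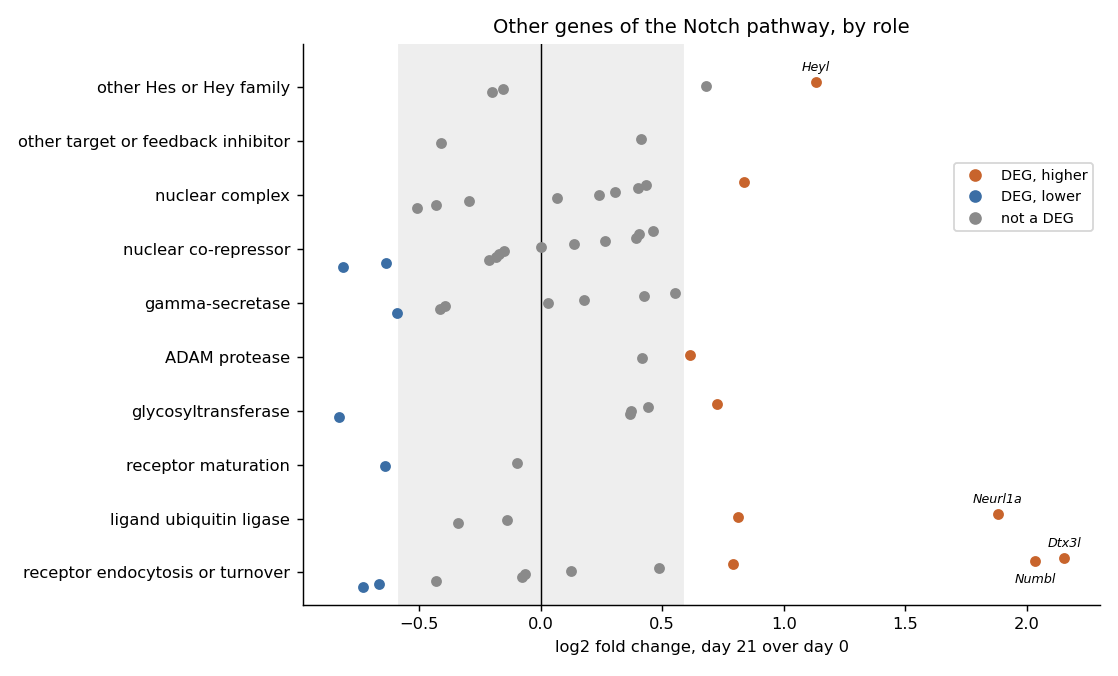
Log2 fold change of day 21 over day 0 (horizontal axis) for the 57 tested genes of the wider Notch list, grouped by role, with DEGs that were higher in orange, lower in blue and genes not called in gray; shading marks changes within 1.5-fold. Only Heyl, Neurl1a, Numbl and Dtx3l lie beyond a log2 fold change of 1.

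Several of the 10 genes share exon bases with a gene on the other strand, and the strand setting of the counting is not given in the sources used here. The share was 20.6% of the exon bases of Dll1 (with A930024N18Rik), 7.50% and 2.91% of Notch1 (with 0610009E02Rik and Gm13568), 6.03% of Notch3 (with Gm17276) and 5.56% of Dll4 (with Gm14207). Reads from these stretches cannot be assigned to one strand without that setting. On its own strand Notch2 shares 5.02% of its exon bases with Gm42820, which had 0 counts in all 6 mice.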

How the data were processed

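Kidney RNA of 6 mice (3 per group) was measured by paired-end RNA sequencing. The authors aligned the reads to mm10, with TopHat named in the submitters' processing notes, and deposited unnormalized counts of each gene, with a column for every mouse. The counting program and its strand setting are not given in the sources used here. All 55450 gene identifiers match GENCODE mouse release M21 (GRCm38), which gave positions and exon lengths.

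Genes were filtered with filterByExpr (minimum count 10, minimum total 15), scaled by TMM and compared with edgeR 4.0.16 in R 4.3.3 by the quasi-likelihood test without a replicate block, with Benjamini-Hochberg adjustment over all genes tested. Standard errors were taken from the estimate and its F statistic. The thresholds for a DEG (fold over 1.5, adjusted p below 0.05) were those of the study. DESeq2 1.42.0 and limma 3.58.1 (voom) were alternatives, beside RLE, upper quartile or no scaling factors, other filters and thresholds, leaving out mitochondrially encoded genes, a replicate block and leaving out each mouse. Simulated counts with known changes were used to test the scripts. Values of single genes were compared by two-sided exact permutation tests, for which 0.1 is the smallest p. All 10 genes were named. In the wider list every DEG was named and other genes by their role, a few of which are not reported here. The genes and lists were chosen with earlier results of these data known. Nothing in the sources says more of the replicates than that they are separate mice. Mice of a group differed by far more than sampling noise (chi-square of 6.78 or more per gene), so none was a duplicate.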

Additional observations from a re-analysis of the deposited data

How the results depend on the processing

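Of 149 alternative values of the 10 log2 fold changes, 134 kept their direction and their side of the threshold. Those that crossed it are given with Notch3, Notch4 and Jag1 above, apart from Jag1 with upper quartile scaling (0.65, edgeR adjusted p = 0.036) and with library size alone (0.96). The sign turned only for genes near 0. Notch1 was 0.28 and Jag2 0.28 with library size alone, and with each mouse left out the log2 fold change of Notch1 ran from -0.20 to 0.026, that of Jag2 from -0.28 to 0.022 and that of Dll1 from -0.054 to 0.17. The number of the 10 genes called higher was 2 with upper quartile scaling, 3 with library size alone, 0 at the strict threshold (fold over 2, adjusted p below 0.01), and between 1 and 2 with each mouse left out. The number called lower was 1 with RLE scaling, with DESeq2 and with no limit on fold, and between 0 and 1 with each mouse left out. In each of these cases the gene called lower was Notch4. The wider list had 25 higher and 0 lower with library size alone, 3 lower with upper quartile scaling, 18 higher and 12 lower with no limit on fold, and 4 higher and 0 lower at the strict threshold. That threshold left 3172 DEGs in all, against 5821. Of the 16 DEGs in the wider list, 7 kept their call under every alternative that left the DEG thresholds unchanged. All 7 were higher (Heyl, Maml2, Neurl1a, Neurl1b, Numbl, Dtx3l and Dtx4). No lower gene could be among them, since library size alone, which lifts the median of all genes to 0.42, left 0 lower. Spen, Rfng and Itch kept their lower call under 14 of 15 alternatives and lost it with library size alone. Furin and Numb lost theirs with library size alone and with upper quartile scaling. Lfng lost its call without either of 2 mice in each group, and Adam10 lost it without day-0 replicate 2, with RLE scaling and with DESeq2.

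With the replicate number as a block 5758 genes were DEGs, and 1 of the 10 Notch genes was called, as without it. The wider list had 9 higher and 6 lower, Aph1c being lost. The numbers do not pair the mice, since deviations of same-numbered mice correlated at -0.03, 0.18 and 0.11. The cause of these changes was not tested. Hey1 had the fewest counts of the 10 genes and the widest interval.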
